A study of Mus musculus with 14 samples.

Results

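The 51 genes described here are the matrix metalloproteinases (Mmp, 23 genes), the tissue inhibitors of metalloproteinases (Timp, 4 genes), the ADAMTS proteinases (Adamts, 19 genes) and the ADAMTS-like proteins (Adamtsl, 5 genes) named on a mouse expression array, out of 36413 gene names. They were chosen by symbol alone, from the pattern of each family name followed by a number, and 68 array probes carried them. Of these, 42 genes were well above background in at least 1 group and were tested, among 25896 gene names tested in all. This asked for both arrays of the group, or for the sound array alone where the other had a faulty scanner file, as for Mmp7. The 9 members that were not tested were Mmp8, Mmp12, Mmp16, Mmp20, Mmp21, Mmp25, Adamts3, Adamts19 and Adamts20.

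The tumor cells were D2A1, a line of mouse breast cancer, and their partners were embryonic mouse fibroblasts (MEFs), either wild type (WT) or Hsf1 null. Hsf1 encodes a transcription factor of the heat shock response. Tumor cells were grown alone, with WT MEFs or with null MEFs, and each MEF genotype was grown alone or with tumor cells, all for 72 hours in DMEM with 10% serum. Co-cultured cell types were separated by cell sorting before RNA was taken. The comparison asks how co-culture changes expression in each cell type and whether that depends on Hsf1 in the fibroblasts. MEFs that accompanied tumor cells to be profiled had been treated with mitomycin C, at 10 ug/ml for 2 hours, and the labels name no treatment for the MEFs that were profiled themselves. Each of the 7 groups held 2 arrays, replicate A on 1 slide and replicate B on the other. The labels name no separate cultures, animals or MEF lines behind the replicates, so every p-value measures only the spread between these arrays.

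Matrix metalloproteinases are zinc endopeptidases that cut collagens, proteoglycans and other proteins of the extracellular matrix, mostly after a propeptide has been removed. ADAMTS enzymes are related secreted proteinases with thrombospondin repeats, whose substrates include procollagens and the large aggregating proteoglycans, while ADAMTS-like proteins keep the repeats but lack the catalytic domain. TIMPs bind the active site of these enzymes and block it. In breast tumors, fibroblasts are known as a main source of several of them.

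Levels are given as deposited log2 values, replicate A before replicate B, and differences as log2 values ± SE of a limma fit over all 7 groups, with 2 arrays on each side. Adjusted p-values are limma's after Benjamini-Hochberg adjustment over all 25896 gene names, with a threshold of 0.05. Array medians lay between 6.34 and 6.40. For 2 arrays, replicate A of the tumor cells alone and of those with null MEFs, the scanner file was faulty, with 32.1% and 36.8% of spots flagged as outliers against 0.246% to 5.74% on the other 12. In the deposited log2 values these 2 arrays did not stand apart, and no correlation between any 2 arrays was below 0.935. Hsf1 itself lay at 12.01 and 11.69 in WT MEFs alone and at 10.07 and 9.97 in null MEFs alone. With tumor cells it lay at 12.05 and 12.04 in WT MEFs and at 10.52 and 10.67 in null MEFs, and whether its probe lies in the deleted part is not stated in the sources used here.

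Sorted cells carried signal of the cell type they had been grown with. The partner's level is that of the sorted partner group. Mitomycin C is named only for MEFs grown with tumor cells to be profiled, not for the profiled MEFs. The sorted partner may thus come from a separate co-culture under another treatment, which limits every percent and subtraction below. Values after subtraction were also scaled up for the share removed, so they can lie above those before it. Genes at least 32-fold higher in a partner cell type reached a median of 7.33% and 7.37% of the partner's level in tumor cells with WT MEFs, and of 9.24% and 22.9% in tumor cells with null MEFs, in which replicate B held more. In WT MEFs with tumor cells the median was 36.9% and 37.6%, and in null MEFs with tumor cells 8.91% and 9.46%. Genes typical of WT MEFs fell by a median of 0.70 and 0.69 in those cultures. The summed log2 level of 16 epithelial markers was 11.13 to 11.33 in WT MEFs alone and 16.19 to 16.40 with tumor cells, and in null MEFs 12.11 to 12.37 against 14.79 to 15.35. Krt18 carried most of the rise in this sum, at 7.84 and 8.18 in WT MEFs alone and 16.16 and 16.37 with tumor cells, while Krt19, Dsp, Cldn7 and Jup were lower on both arrays with tumor cells than on either alone. Of the defining epithelial markers, Epcam was not well above background in any of the 7 groups, and Cdh1 was not above it in tumor cells alone. The summed level of 19 fibroblast markers was 19.05 to 19.12 in tumor cells alone, 19.66 to 19.71 with WT MEFs and 19.21 to 19.53 with null MEFs. That of 10 macrophage markers was 10.40 to 10.41 in WT MEFs alone and 12.26 to 12.39 with tumor cells, 9.98 to 10.0 and 11.11 to 11.26 in null MEFs, and 13.23 to 13.28 in tumor cells alone. Cd14 carried most of the rise in this sum, at 13.03 and 13.14 in tumor cells alone, 7.89 and 8.28 in WT MEFs alone and 11.93 and 12.08 with tumor cells. Replicate A of the null MEFs with tumor cells stood apart in the fibroblast markers Thy1 and Postn, at 10.48 and 11.35 against 5.61 and 8.15 in replicate B. In WT MEFs alone Thy1 lay at 14.79 and 14.93 and Postn at 15.07 and 14.89. Without that array 4 members passed in null MEFs, all higher. In such sorted bulk samples, fewer cells of a type and less RNA per cell cannot be told apart, and the gain behind each rise in co-culture is given below as a percent of the partner's level.

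Tumor cells grown alone were higher than WT MEFs grown alone in genes of the chromosome 9 cluster of stromelysins and collagenases, among them Mmp10, Mmp13 and Mmp3, and lower in Mmp2, Adamts2, Adamts5, Mmp23, Adamts9, Mmp15 and Adamts15. Of the 42 members, 20 were well above background in all 7 groups, Mmp3, Mmp23 and Adamts9 included. Null MEFs alone stood nearer to the tumor cells in part of the cluster, with Mmp13 at a mean of 9.19 against 10.55 and Mmp3 at 9.96 against 10.33. That last difference (0.36 ± 0.11, adjusted p = 0.0188) was lost without either array of tumor cells alone or null MEFs alone A (0.25 to 0.38, adjusted p 0.0509 to 0.15). Of the 42 members tested, 9 were higher and 23 lower in tumor cells alone than in WT MEFs alone, where 27.8% and 23.6% of all gene names were and 51.4% passed in all. Against null MEFs alone, 13 members were higher and 17 lower in tumor cells, where 27.3% and 25.4% of all gene names were and 52.6% passed in all. The members' median differences were -0.63 and -0.23, against 0.08 and 0.07 over all gene names. In the 12 sound scanner arrays, the second comparison gave 7 higher and 15 lower. WT MEFs alone had the highest group mean for 18 of the 42 members tested. The same share over all gene names was not computed, so this count has nothing to be compared with.

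WT and null MEFs grown alone differed in 27 members. WT MEFs were higher in 19 and lower in 8 of the 42, where 15.9% and 17.9% of all gene names were and 33.8% passed in all, and the median was 0.33 against -0.03 over all gene names. All 4 TIMPs and 6 Mmp genes were higher in WT MEFs, and 5 Mmp genes were lower. With tumor cells present, WT MEFs were higher in 18 and lower in 5, where 14.8% and 14.7% of all gene names were and 29.5% passed in all, with a median of 0.40 against -0.00.

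Co-culture with tumor cells changed 17 members in WT MEFs and 6 in null MEFs. In WT MEFs 9 rose and 8 fell, where 6.31% and 4.2% of all gene names did, 10.5% passed in all, and the medians were -0.09 and -0.04. In null MEFs 5 rose and 1 fell, where 2.81% and 0.332% of all gene names did, 3.14% passed in all, and the medians were 0.07 and -0.04. The WT and null responses themselves differed in 8 members, 4 higher and 4 lower in WT MEFs, where 1.96% and 1.07% of all gene names were, 3.03% passed in all, and the medians were -0.16 and -0.00. Leaving out WT MEFs with tumor cells A left 10 calls in WT MEFs, and leaving out WT MEFs alone B left 11. Leaving out either array of null MEFs alone left 3 calls in null MEFs. The 8 differences of response came down to 4 without WT MEFs with tumor cells B or either array of WT MEFs alone. They came down to 5 without WT MEFs with tumor cells A, null MEFs with tumor cells A or either array of null MEFs alone. In the sound scanner arrays the calls split 8 higher and 4 lower in WT MEFs, 4 and 0 in null MEFs, and 4 and 0 for the difference of responses. With the partner's share subtracted they split 5 higher and 6 lower in WT MEFs and 2 higher and 0 lower for the difference of responses. In null MEFs that left 0 higher and 1 lower, Mmp10, which was a rise before subtraction.

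In tumor cells, co-culture raised more members than it lowered with either kind of MEF. With WT MEFs 15 members rose and 2 fell against tumor cells alone, where 7.04% and 4.77% of all gene names did, 11.8% passed in all, and the medians were 0.25 and -0.04. With null MEFs 12 rose and 0 fell, where 10.1% and 9.6% of all gene names did, 19.7% passed in all, and the medians were 0.18 and -0.09. Both comparisons share the tumor cells grown alone. By limma's unadjusted p under 0.05, 3 members were lower with null MEFs, and after quantile normalization the calls split 12 higher and 2 lower. Between the partners, 6 members were higher with WT MEFs and 4 higher with null MEFs, where 4.11% and 5.38% of all gene names were and 9.49% passed in all, with medians of 0.07 and 0.04. The 17 calls with WT MEFs came down to 9 without tumor cells with WT MEFs A or tumor cells alone A, and to 11 without tumor cells alone B. The 10 calls between partners came down to 6 without tumor cells with WT MEFs A and to 5 without B. In the sound scanner arrays 9 members were higher and 0 lower with WT MEFs, and the partners differed in 2 members each way. With the partner's share subtracted, 7 members were higher and 0 lower with WT MEFs, and 10 were higher and 2 lower with null MEFs.

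Mmp13, Mmp1b, Mmp3, Mmp1a and Mmp10 lie with Mmp7, Mmp8, Mmp12, Mmp20 and Mmp27 in a cluster on chromosome 9. The promoters of Mmp10, Mmp3 and Mmp13 are shown because these genes had the largest differences among the members in WT MEFs with tumor cells and because Hsf1 differs between the MEFs. In the RefSeq table of GRCm38.p6, 36 of the 51 members had a promoter entry, with 39 start sites, and the 250 bases before each start were searched on both strands. The motif TGANTCA is a loose form of the site of the AP-1 (Fos and Jun) factors, with any base in the middle. It occurred in 8 of the 39 windows, or 20.5%, against 6.75% of all 32851 promoter windows. All 8 belonged to the 10 members with a window on chromosome 9, which form the cluster (Mmp13, Mmp12, Mmp1b, Mmp3, Mmp1a, Mmp10, Mmp20 and Mmp7), and 0 of the 26 members elsewhere held it. The Mmp20 match was TGAATCA, where the AP-1 site has G or C in the middle. The motif GAANNTTC, a pair of the inverted units that heat shock factors bind, occurred in 1 member window, that of Mmp10, or 2.56%, against 6.69% of all windows, and did not overlap the AP-1 letters. These matches describe letters in a window and were not tested for binding. In the following windows the AP-1 letters are in capitals, at positions counted backwards from -1, the last base before the start: -46 to -40 in Mmp3 (chr9:7445572-7445821, + strand), -63 to -57 in Mmp10 (chr9:7502092-7502341, + strand) and -35 to -29 in Mmp13 (chr9:7272264-7272513, + strand).
Mmp3: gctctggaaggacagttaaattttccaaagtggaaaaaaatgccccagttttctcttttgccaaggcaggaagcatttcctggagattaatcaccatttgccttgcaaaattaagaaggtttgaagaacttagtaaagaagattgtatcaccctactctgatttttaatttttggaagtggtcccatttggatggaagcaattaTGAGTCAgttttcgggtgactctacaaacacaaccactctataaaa
Mmp10: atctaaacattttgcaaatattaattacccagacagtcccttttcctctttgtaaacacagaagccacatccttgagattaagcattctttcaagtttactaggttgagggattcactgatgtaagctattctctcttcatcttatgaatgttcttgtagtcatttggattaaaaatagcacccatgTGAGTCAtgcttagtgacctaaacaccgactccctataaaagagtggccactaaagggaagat
Mmp13: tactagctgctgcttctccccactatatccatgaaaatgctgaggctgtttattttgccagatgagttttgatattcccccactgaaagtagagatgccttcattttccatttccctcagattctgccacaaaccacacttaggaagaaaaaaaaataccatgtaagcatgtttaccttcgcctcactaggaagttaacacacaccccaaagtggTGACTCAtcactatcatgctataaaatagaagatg

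Mmp10, stromelysin-2, cleaves proteoglycans and non-fibrillar collagens and activates other pro-MMPs. Its log2 level was 13.21 and 13.32 in tumor cells alone, 12.45 and 12.36 with WT MEFs, and 13.13 and 12.25 with null MEFs. In MEFs it was 5.49 and 5.40 in WT alone, 11.71 and 11.73 in WT with tumor cells, 6.54 and 6.55 in null alone, and 9.37 and 9.21 in null with tumor cells. The tumor groups lay above all MEF arrays, and co-cultured MEFs lay above MEFs alone without overlap. WT MEFs alone were not well above background, so the rise in WT MEFs was at least 77.5-fold (6.28 ± 0.22, adjusted p = 1.79e-08) and tumor cells alone exceeded WT MEFs alone at least 226-fold (7.82 ± 0.22, adjusted p = 1.66e-09). In null MEFs Mmp10 rose 6.72-fold (2.75 ± 0.22, adjusted p = 2.38e-05), and the WT response was larger by 3.53 ± 0.31 (adjusted p = 0.000152). Mmp10 in WT MEFs reached 61.0% and 62.1% of the level of their tumor partners, outside the 27.7% to 45.7% and 27.7% to 49.8% that held the middle of 75 tumor-typical genes. The highest of those genes stood at 90.6% and 105%, so Mmp10 lay within their full range. In null MEFs it reached 8.24% and 7.20%, near the median of 8.91% and 9.46%. With the median partner share subtracted the difference was 5.64 in WT MEFs and -1.18 in null MEFs. Partner RNA left in the value for WT MEFs was not tested. In tumor cells Mmp10 fell with WT MEFs (-0.86 ± 0.22, adjusted p = 0.0276), a call lost without any 1 array of those groups (-0.92 to -0.81, adjusted p 0.0842 to 0.123).

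Mmp3, stromelysin-1, has a broad range of matrix substrates and also activates pro-MMPs. It lay at 10.34 and 10.31 in tumor cells alone, 13.52 and 13.43 with WT MEFs and 10.90 and 10.92 with null MEFs. In MEFs it lay at 8.15 and 8.36 in WT alone, 12.22 and 12.33 in WT with tumor cells, 9.85 and 10.07 in null alone, and 10.68 and 10.65 in null with tumor cells. Tumor cells with WT MEFs and WT MEFs with tumor cells stood above every other group. In tumor cells Mmp3 rose 8.85-fold with WT MEFs (3.15 ± 0.11, adjusted p = 5.6e-07) and 1.5-fold with null MEFs (0.58 ± 0.11, adjusted p = 0.00522), and the partners differed by 2.57 ± 0.11 (adjusted p = 5.32e-07). The level in tumor cells with WT MEFs exceeded that of the sorted WT MEFs, so the gain over tumor cells alone equalled 211% and 196% of the partner's level, against 38.4% and 39.9% with null MEFs, and after subtraction the rise was 3.21. In WT MEFs Mmp3 rose 16.3-fold (4.03 ± 0.11, adjusted p = 3.7e-09), to 39.3% and 42.6% of the tumor partner's level, within the middle range of tumor-typical genes, and 1.90 of the rise remained after subtraction. Null MEFs alone exceeded WT MEFs alone (-1.71 ± 0.11, adjusted p = 1.04e-06), the order turned with tumor cells (1.61 ± 0.11, adjusted p = 3.35e-06), and the responses differed by 3.32 ± 0.16 (adjusted p = 2.58e-06). After subtraction the order in co-culture was -0.48. The rise in null MEFs (0.70 ± 0.11, adjusted p = 0.00468), at 33.3% and 31.7% of the tumor partner's level, was lost without null MEFs alone A (0.59, adjusted p = 0.0601).

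Mmp13, collagenase-3, cuts fibrillar collagen. Its level was 10.48 and 10.63 in tumor cells alone, 9.52 and 10.16 with WT MEFs, and 11.06 and 10.78 with null MEFs. It was 5.48 and 5.46 in WT MEFs alone, 8.78 and 8.62 in WT MEFs with tumor cells, 9.14 and 9.25 in null MEFs alone and 10.03 and 9.63 in null MEFs with tumor cells. WT MEFs alone, not well above background, stood far below the null MEFs, which differed at least 13.2-fold (-3.72 ± 0.20, adjusted p = 3.21e-07). With tumor cells the null MEFs were still higher, 2.19-fold (-1.13 ± 0.20, adjusted p = 0.00175). The rise in WT MEFs was at least 9.36-fold (3.23 ± 0.20, adjusted p = 2.02e-06), the value in null MEFs was 0.63 ± 0.20 (adjusted p = 0.191), and the responses differed by 2.59 ± 0.29 (adjusted p = 0.000687). In WT MEFs Mmp13 stood at 41.9% and 37.1% of the tumor partner's level, inside the range of tumor-typical genes, and after subtraction the differences were 1.12 in WT MEFs and 0.66 between the responses, neither of which passed. In tumor cells it was lower with WT than with null MEFs (-1.08 ± 0.20, adjusted p = 0.00778). The fall against tumor cells alone (-0.71 ± 0.20, adjusted p = 0.0474) was lost in 9 of 14 fits without 1 array, those without tumor cells with WT MEFs A, either array of tumor cells alone and any array of WT MEFs or of null MEFs alone (-0.79 to -0.39, adjusted p 0.0684 to 0.258).

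Mmp1a and Mmp1b, the mouse relatives of interstitial collagenase, are near copies of each other, so the split of signal between their probes is uncertain. Mmp1b lay at 7.64 and 7.85 in tumor cells alone, 7.31 and 7.95 with WT MEFs, and 7.77 and 7.19 with null MEFs. In WT MEFs it lay at 4.56 and 4.74 alone and at 6.05 and 6.10 with tumor cells, and in null MEFs at 4.93 and 4.83 alone and at 5.25 and 5.14 with tumor cells. The 3 tumor groups overlapped. The rise in WT MEFs was 2.65-fold against the lowest signal above background (1.43 ± 0.22, adjusted p = 0.00168). It stood at 20.3% and 21.4% of the tumor partner's level, and was 0.40 after subtraction. Tumor cells alone exceeded WT MEFs alone 8.42-fold on the same basis (3.09 ± 0.22, adjusted p = 7.72e-07). WT MEFs alone lay below the median of genes not above background (5.095 and 5.077), so neither fold is a strict lower bound. Mmp1a stayed between 4.85 and 6.32 on all 14 arrays and rose in WT MEFs at least 1.99-fold (0.99 ± 0.23, adjusted p = 0.0189), at 69.6% and 34.3% of the tumor partner's level, a call lost without WT MEFs with tumor cells A or either array of WT MEFs alone (0.74 to 1.06, adjusted p 0.0712 to 0.172). Of the other cluster members, Mmp27 was at least 1.79-fold higher in tumor cells with null MEFs than alone (0.84 ± 0.15, adjusted p = 0.00367), at 76.7% and 31.7% of the partner's level. It lay at 6.19 and 5.65 with null MEFs and 5.15 and 5.02 alone, and both A arrays have a faulty scanner file. In the sound scanner arrays its 2 probes gave 0.13 and 2.70, and the first was well above background on 0 arrays. Mmp7 passed in no comparison, and Mmp8, Mmp12 and Mmp20 were not tested.

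**Figure D1:**
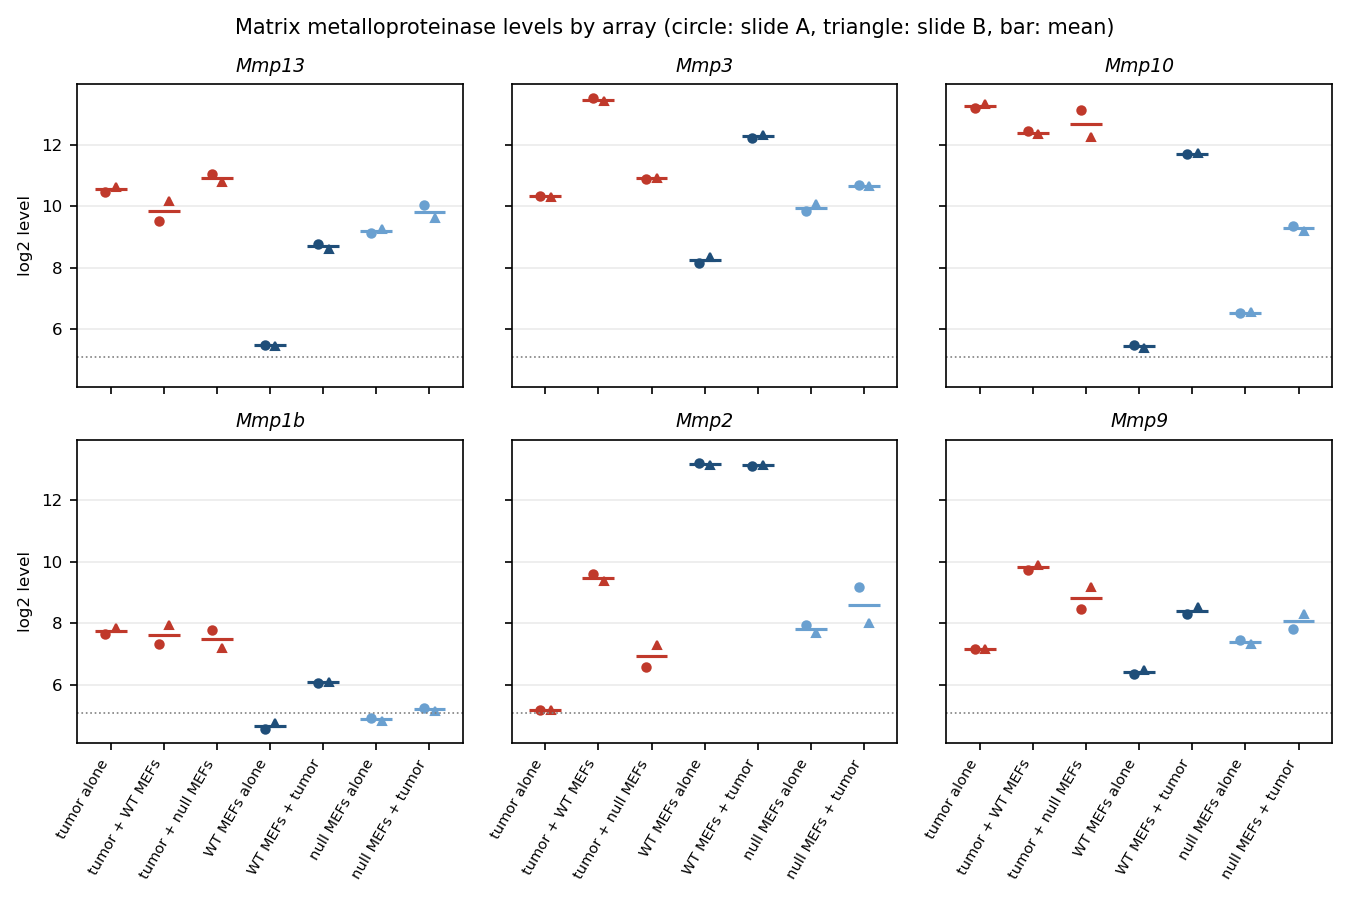
Log2 levels (vertical axis) of the main matrix metalloproteinases in the 7 groups (horizontal axis), 1 point per array and a bar at the mean of the 2 arrays, and a dotted line at the median level of genes not above background. Mmp10 and Mmp13 are near that line in WT MEFs alone. Mmp3 peaks in tumor cells with WT MEFs and in WT MEFs with tumor cells. Mmp2 is high in WT MEFs and near the line in tumor cells alone.

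The gelatinases Mmp2 and Mmp9 cut denatured collagen and basement membrane collagen. Mmp2 lay at 13.22 and 13.16 in WT MEFs alone and 13.12 and 13.16 with tumor cells, but at 7.96 and 7.68 in null MEFs alone and 9.19 and 8.01 with tumor cells. In tumor cells it lay at 5.16 and 5.17 alone, 9.62 and 9.37 with WT MEFs, and 6.59 and 7.30 with null MEFs. No groups overlapped except the WT MEFs alone and with tumor cells. The value of 9.19 is from the array of null MEFs with the high Thy1 and Postn, and the part of those markers' cells in it was not tested. WT MEFs alone exceeded null MEFs alone 41.4-fold (5.37 ± 0.33, adjusted p = 5.99e-07) and tumor cells alone at least 261-fold (-8.03 ± 0.33 for tumor cells minus WT MEFs, adjusted p = 1.59e-08). In tumor cells Mmp2 rose at least 20.1-fold with WT MEFs (4.33 ± 0.33, adjusted p = 2.24e-05) and at least 3.43-fold with null MEFs (1.78 ± 0.33, adjusted p = 0.00381). The gain equalled 8.31% and 6.93% of the level in WT MEFs, where fibroblast-typical genes had a median of 7.33% and 7.37%, and 14.3% and 29.0% of that in null MEFs. After subtraction 0.93 and 0.98 remained, neither past the threshold, and the difference between partners of 2.55 became -0.05.

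Mmp9 followed another pattern. It lay at 7.17 and 7.16 in tumor cells alone, 9.73 and 9.90 with WT MEFs, and 8.47 and 9.17 with null MEFs. The MEFs had it at 6.35 and 6.48 in WT alone, 8.29 and 8.53 in WT with tumor cells, 7.46 and 7.33 in null alone and 7.82 and 8.31 in null with tumor cells. Tumor cells with WT MEFs stood above all other arrays. Mmp9 rose 6.29-fold in tumor cells with WT MEFs (2.65 ± 0.22, adjusted p = 4.2e-05) and 3.16-fold with null MEFs (1.66 ± 0.22, adjusted p = 0.000507). These gains equalled 207% and 238% of the level in the WT partner and 77.6% and 160% of that in the null partner, and 2.72 and 1.78 remained after subtraction. The partners differed by 1.0 ± 0.22 (adjusted p = 0.0179), a call lost without either array of tumor cells with WT MEFs or replicate A with null MEFs (0.64 to 1.08, adjusted p 0.0548 to 0.107). In WT MEFs Mmp9 rose 3.98-fold (1.99 ± 0.22, adjusted p = 0.000165), at 25.2% and 31.4% of the tumor partner's level, and after subtraction the difference was -1.10. The value in null MEFs was 0.67 ± 0.22 (adjusted p = 0.203) and that of the difference between responses 1.32 ± 0.31 (adjusted p = 0.053).

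Among the membrane-anchored enzymes, Mmp14, a collagenase that activates pro-Mmp2, was near even. It lay at 11.11 and 10.95 in tumor cells alone, 10.81 and 11.19 with WT MEFs and 10.69 and 10.89 with null MEFs. In MEFs it lay at 11.64 and 11.73 in WT alone, 11.39 and 11.47 in WT with tumor cells, 10.48 and 10.47 in null alone, and 10.25 and 10.62 in null with tumor cells. WT MEFs were higher than null MEFs alone (1.21 ± 0.16, adjusted p = 0.000141) and with tumor cells (1.0 ± 0.16, adjusted p = 0.000736), without overlap. Its differences for co-culture were between -0.25 and -0.03 in the 4 comparisons with cells grown alone, and none passed.

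Mmp15 and Mmp17, further membrane-type members, fell in WT MEFs. Mmp15 lay at 8.61 and 8.60 in WT MEFs alone and 7.06 and 7.24 with tumor cells, at 7.81 and 7.67 in null MEFs alone and 7.02 and 7.31 with tumor cells, and between 4.97 and 5.42 in the tumor groups. Its fall in WT MEFs was 2.74-fold (-1.45 ± 0.12, adjusted p = 2.25e-05), and the responses differed by -0.88 ± 0.18 (adjusted p = 0.0242). That of WT MEFs was larger than the median fall of 0.70 and 0.69 among genes typical of those cells, and -0.94 remained after subtraction. The fall in null MEFs (-0.58 ± 0.12, adjusted p = 0.0316) was lost without any array of WT or null MEFs alone or null MEFs with tumor cells A (-0.64 to -0.43, adjusted p 0.0578 to 0.233). The difference of responses was lost without any array of WT MEFs or of null MEFs alone (-0.97 to -0.78, adjusted p 0.0531 to 0.118). Mmp17 lay at 9.11 and 9.13 in WT MEFs alone, 8.28 and 8.43 with tumor cells, 7.07 and 6.88 in null MEFs alone, 7.22 and 7.20 with tumor cells, and 7.31 to 7.93 in the tumor groups. WT MEFs alone exceeded null MEFs alone 4.42-fold (2.14 ± 0.14, adjusted p = 8e-07). Its fall in WT MEFs (-0.77 ± 0.14, adjusted p = 0.00443) was lost without WT MEFs with tumor cells A (-0.70, adjusted p = 0.0521). The difference of responses (-1.0 ± 0.19, adjusted p = 0.0188) was lost without any array of WT MEFs, null MEFs with tumor cells A or null MEFs alone B (-1.07 to -0.90, adjusted p 0.0537 to 0.0936).

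Mmp19, a secreted enzyme that cuts basement membrane proteins, rose in tumor cells with both partners. It lay at 7.41 and 7.30 in tumor cells alone, 8.54 and 8.56 with WT MEFs and 8.05 and 8.14 with null MEFs, without overlap. The rises were 1.2 ± 0.10 (adjusted p = 4.7e-05) and 0.74 ± 0.10 (adjusted p = 0.000612), equal to 44.0% and 44.7% of the WT partner's level and 69.8% and 81.7% of the null partner's, and 1.16 of the first remained after subtraction. Levels in MEFs were at 8.65 and 8.60 in WT alone, 8.86 and 8.93 in WT with tumor cells, 6.60 and 6.49 in null alone and 7.25 and 7.08 in null with tumor cells. WT MEFs alone exceeded null MEFs alone 4.23-fold (2.08 ± 0.10, adjusted p = 1.6e-07). The rise in null MEFs (0.63 ± 0.10, adjusted p = 0.00509), at 21.7% and 15.5% of the tumor partner's level, was lost without null MEFs alone B (0.57, adjusted p = 0.0661). The difference between partners of the tumor cells (0.46 ± 0.10, adjusted p = 0.0175) was lost without either array with WT MEFs or replicate A with null MEFs (0.41 to 0.46, adjusted p 0.0691 to 0.0827).

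Mmp23, a short membrane-bound member, was a fibroblast gene in these samples. It lay at 10.92 and 10.91 in WT MEFs alone, 10.44 and 10.69 with tumor cells, 9.09 and 9.07 in null MEFs alone and 9.02 and 9.33 with tumor cells. The tumor cells had it at 6.50 and 6.80 alone, 7.45 and 7.49 with WT MEFs and 7.56 and 8.41 with null MEFs. It was 19.3-fold higher in WT MEFs alone than in tumor cells alone (-4.27 ± 0.23 for tumor cells minus WT MEFs, adjusted p = 1.17e-07) and 3.56-fold higher than in null MEFs alone (1.83 ± 0.23, adjusted p = 0.000123). The rise in tumor cells with null MEFs was 1.34 ± 0.23 (adjusted p = 0.00287), at 15.1% and 41.1% of the partner's level. The rise with WT MEFs (0.82 ± 0.23, adjusted p = 0.0453), at 4.91% and 5.18%, was lost in 10 of 14 fits without 1 array, all but those without tumor cells with null MEFs A or B or null MEFs with tumor cells A or B (0.68 to 0.97, adjusted p 0.0633 to 0.209).

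Mmp11, stromelysin-3, was well above background in every group, between 12.02 and 12.67 in the tumor groups and between 13.05 and 13.38 in the MEF groups, without overlap. Tumor cells alone were lower than WT MEFs alone by -1.21 ± 0.13 (adjusted p = 1.99e-05). Its rise in tumor cells with WT MEFs (0.47 ± 0.13, adjusted p = 0.0407), at 14.8% and 19% of the partner's level, was lost in 9 of 14 fits without 1 array, those without either array with WT MEFs, tumor cells alone A, any array of WT MEFs or either of null MEFs alone (0.35 to 0.52, adjusted p 0.0599 to 0.214). Mmp24 lay between 5.64 and 6.16 on all arrays and Mmp28 between 5.08 and 5.58, close to background.

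**Figure D2:**
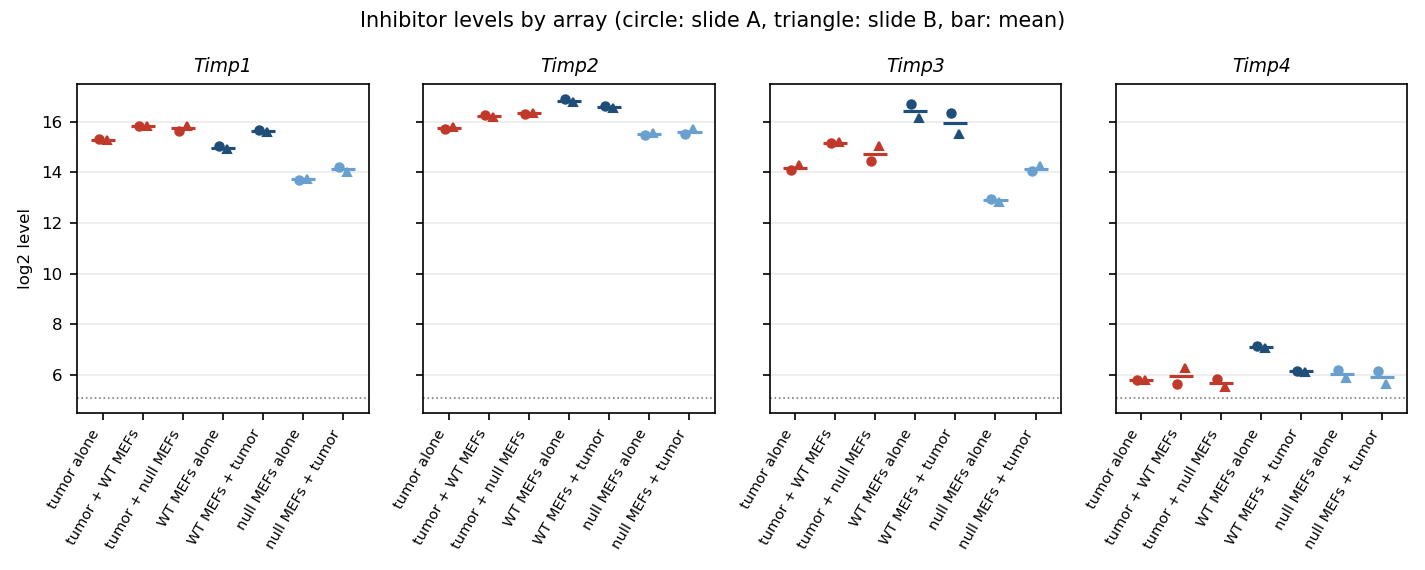
Log2 levels (vertical axis) of the 4 Timp genes in the 7 groups (horizontal axis), 1 point per array and a bar at the mean of the 2 arrays, and a dotted line at the median level of genes not above background. WT MEFs alone lie above null MEFs alone for all 4.

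Timp1, Timp2 and Timp3 were well above background in all 7 groups. Timp1, a secreted inhibitor of most MMPs, lay at 15.32 and 15.28 in tumor cells alone, 15.82 and 15.82 with WT MEFs and 15.63 and 15.85 with null MEFs. In MEFs it lay at 15.05 and 14.92 in WT alone, 15.68 and 15.62 in WT with tumor cells, 13.69 and 13.76 in null alone and 14.23 and 14.01 in null with tumor cells. Every co-culture group stood above the same cells alone. The rise in WT MEFs was 1.59-fold (0.67 ± 0.11, adjusted p = 0.00342), at 34.7% and 31.1% of the tumor partner's level, and 0.56 after subtraction. WT MEFs exceeded null MEFs alone (1.26 ± 0.11, adjusted p = 9.5e-06) and with tumor cells (1.53 ± 0.11, adjusted p = 4.77e-06). The rises in tumor cells were 0.52 ± 0.11 with WT MEFs (adjusted p = 0.0142) and 0.44 ± 0.11 with null MEFs (adjusted p = 0.0215), at 33.8% on both arrays and at 58.1% and 104% of the partner's level. The first was lost without any 1 array of its groups (0.50 to 0.54, adjusted p 0.0546 to 0.0667), and the second without tumor cells with null MEFs B or either array of tumor cells alone (0.33 to 0.46, adjusted p 0.0624 to 0.145). The difference between tumor cells alone and WT MEFs alone (0.32 ± 0.11, adjusted p = 0.0369) was lost without either array of tumor cells alone, any array of WT MEFs or either of null MEFs alone (0.26 to 0.38, adjusted p 0.0502 to 0.188).

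Timp2, which both inhibits MMPs and takes part in activating pro-Mmp2 on the cell surface, lay at 15.70 and 15.79 in tumor cells alone, 16.26 and 16.21 with WT MEFs and 16.31 and 16.36 with null MEFs. The MEFs had it at 16.89 and 16.80 in WT alone, 16.62 and 16.54 in WT with tumor cells, 15.48 and 15.55 in null alone, and 15.52 and 15.70 in null with tumor cells. WT MEFs exceeded null MEFs alone 2.51-fold (1.33 ± 0.10, adjusted p = 2.68e-06) and in co-culture 1.96-fold (0.97 ± 0.10, adjusted p = 4.21e-05). In tumor cells Timp2 rose with null MEFs (0.59 ± 0.10, adjusted p = 0.00238) and with WT MEFs (0.50 ± 0.10, adjusted p = 0.00978), the latter lost without tumor cells with WT MEFs A or tumor cells alone A (0.45 to 0.47, adjusted p 0.059 to 0.0624). The gains equalled 52.9% and 58.7% of the null partner's level and 24.2% and 21.5% of the WT partner's. In the sound scanner arrays the 2 probes gave -0.09 and 0.52 with WT MEFs and 0.09 and 0.12 with null MEFs, where the gene's value was 0.11 (adjusted p = 0.935), so that the call with null MEFs was lost there.

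Timp3, which binds to the matrix and inhibits several ADAMTS enzymes as well as MMPs, lay at 16.70 and 16.15 in WT MEFs alone and 16.37 and 15.54 with tumor cells. In null MEFs it lay at 12.96 and 12.84 alone and 14.05 and 14.24 with tumor cells. In tumor cells it lay at 14.09 and 14.29 alone, 15.16 and 15.19 with WT MEFs, and 14.47 and 15.04 with null MEFs. The WT MEF groups overlapped, and the null MEFs alone were lower than every other group. WT MEFs alone exceeded null MEFs alone 11.5-fold (3.52 ± 0.28, adjusted p = 3.45e-06) and with tumor cells 3.52-fold (1.82 ± 0.28, adjusted p = 0.000586). In null MEFs Timp3 rose by 1.24 ± 0.28 (adjusted p = 0.0365), at 32.8% and 41.3% of the tumor partner's level, above the median of 8.91% and 9.46% of tumor-typical genes. In tumor cells with WT MEFs the gain was 26.9% and 28.3% of the partner's level. The call in null MEFs and the rise in tumor cells with WT MEFs (0.99 ± 0.28, adjusted p = 0.0431) were each lost in 8 of 14 fits without 1 array, those without either array of tumor cells with WT MEFs, tumor cells alone, null MEFs with tumor cells or null MEFs alone (1.14 to 1.33, adjusted p 0.0551 to 0.231, and 0.89 to 1.09, adjusted p 0.0526 to 0.174). The WT response was the lower by -1.70 ± 0.39 (adjusted p = 0.0449), a call lost in 11 of 14 such fits, all but those without tumor cells with null MEFs A or B or WT MEFs with tumor cells A (-1.98 to -1.29, adjusted p 0.0501 to 0.169).

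Timp4 was not well above background in tumor cells alone or with null MEFs. It lay at 7.12 and 7.06 in WT MEFs alone, 6.15 and 6.11 with tumor cells, 6.18 and 5.88 in null MEFs alone and 6.15 and 5.63 with tumor cells. Levels in tumor cells were at 5.80 and 5.78 alone, 5.63 and 6.27 with WT MEFs, and 5.81 and 5.53 with null MEFs. Only WT MEFs alone stood apart, above null MEFs alone by 1.06 ± 0.22 (adjusted p = 0.0034). The fall in WT MEFs (-0.96 ± 0.22, adjusted p = 0.0189) was lost without any 1 array of those groups (-0.99 to -0.94, adjusted p 0.0964 to 0.109).

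The procollagen N-proteinases trim fibrillar procollagens before they assemble. Adamts2 lay at 11.89 and 11.87 in WT MEFs alone, 11.27 and 11.39 with tumor cells, 10.96 and 10.84 in null MEFs alone, and 10.40 and 10.92 with tumor cells. In tumor cells it lay at 5.43 and 5.58 alone, 8.19 and 7.95 with WT MEFs, and 8.96 and 9.81 with null MEFs. Tumor cells alone were not well above background and stood below every other group, at least 83.1-fold under WT MEFs alone (-6.38 ± 0.25, adjusted p = 1.13e-08). Adamts2 rose in tumor cells at least 5.92-fold with WT MEFs (2.57 ± 0.25, adjusted p = 0.000112) and at least 14.8-fold with null MEFs (3.88 ± 0.25, adjusted p = 1.96e-06). The gains equalled 9.58% and 7.83% of the WT partner's level, near the median of fibroblast-typical genes. They equalled 27.5% and 51.8% of the null partner's level. The middle of 251 fibroblast-typical genes lay there at 5.5% to 13.1% and 14.7% to 32.7%, and the highest at 230% and 374%. After subtraction of the median share 0.87 and 3.48 remained, and partner RNA left in these remainders was not tested. The difference between partners (-1.32 ± 0.25, adjusted p = 0.00749) was lost without replicate B of the tumor cells with WT MEFs (-1.2, adjusted p = 0.0585). That between WT and null MEFs alone (0.98 ± 0.25, adjusted p = 0.0104) was lost without WT MEFs alone A or null MEFs alone B (0.92 to 0.97, adjusted p 0.0535 to 0.0625). The other enzyme of this kind, Adamts14, lay between 8.88 and 9.76 on all arrays, and passed only in tumor cells alone against null MEFs alone (0.54 ± 0.16, adjusted p = 0.018), a call lost without tumor cells alone B or either array of null MEFs alone (0.34 to 0.58, adjusted p 0.0524 to 0.147).

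The probes of Adamts2 and of Adamts5 gave unequal differences in tumor cells. The probes are shown because each pair reads a different stretch of its transcript, with the first 30 of 60 bases printed and positions in mm9, the build of the array files. In the sound scanner arrays, the Adamts2 probe at chr11:50617472-50617531 (+ strand) gave 7.52 for tumor cells with WT MEFs against alone, and the probe at chr11:50590188-50590247 (+ strand) gave 0.71. The Adamts5 probe at chr16:85858402-85858461 (- strand) gave 0.65, and that at chr16:85899450-85899509 (- strand) gave 3.38. All 4 values were positive. They rest on 1 sound array of tumor cells alone, in which neither gene was well above background, so they have no test and their size is uncertain.
Adamts2, larger difference: caaagaatccaggagctcattaatgcagtg
Adamts2, smaller difference: gggcttcactattccatgaacgagcagtgt
Adamts5, smaller difference: ggacacattgcaatacaggtccattcatta
Adamts5, larger difference: ccacgaccctcaagaacttttgcaaatggc

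Adamts1, Adamts4, Adamts5, Adamts8, Adamts9 and Adamts15 cut the proteoglycans aggrecan or versican. Adamts5 lay at 9.58 and 9.5 in WT MEFs alone, 8.89 and 8.92 with tumor cells, 8.12 and 7.67 in null MEFs alone and 7.57 and 7.73 with tumor cells. The tumor cells had it at 5.25 and 5.18 alone, 6.25 and 6.05 with WT MEFs and 6.61 and 7.50 with null MEFs. Null MEFs with and without tumor cells overlapped, and the other groups did not. WT MEFs alone exceeded null MEFs alone 3.13-fold (1.65 ± 0.24, adjusted p = 0.000367) and tumor cells alone at least 20.1-fold (-4.33 ± 0.24 for tumor cells minus WT MEFs, adjusted p = 1.5e-07). The rise in tumor cells with null MEFs was at least 3.57-fold (1.84 ± 0.24, adjusted p = 0.000498), at 30% and 71.5% of the partner's level. It was 1.73 after subtraction of the median share, and partner RNA left in it was not tested. That with WT MEFs (0.93 ± 0.24, adjusted p = 0.033), at 8.12% and 6.07%, was 0.08 after subtraction, and was lost without any array of tumor cells with WT MEFs, tumor cells alone or WT MEFs (0.83 to 1.03, adjusted p 0.0513 to 0.15). The difference between partners (-0.90 ± 0.24, adjusted p = 0.044) was lost in 11 of 14 fits without 1 array, all but those without tumor cells with null MEFs A or null MEFs alone A or B (-1.0 to -0.46, adjusted p 0.0545 to 0.2).

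Adamts4 lay at 10.05 and 10.19 in tumor cells alone, 11.20 and 11.28 with WT MEFs, and 11.15 and 11.78 with null MEFs. Levels in MEFs were at 10.65 and 10.81 in WT alone, 11.06 and 10.96 in WT with tumor cells, 10.81 and 10.88 in null alone and 10.97 and 10.77 in null with tumor cells. Tumor cells alone were the lowest group and the co-cultured tumor cells the highest. The rises were 1.12 ± 0.18 with WT MEFs (adjusted p = 0.00253) and 1.34 ± 0.18 with null MEFs (adjusted p = 0.000482), equal to 60.2% and 66.6% of the WT partner's level and 61.6% and 128% of the null partner's. After subtraction 1.14 remained with WT MEFs. The partners differed by -0.22 ± 0.18 (adjusted p = 0.514), and the MEF groups differed from each other in no comparison that passed.

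Adamts1 was highest in WT MEFs, at 14.90 and 14.75 in WT MEFs alone, 13.97 and 13.90 with tumor cells, 12.35 and 12.08 in null MEFs alone and 12.50 and 12.34 with tumor cells. In tumor cells it lay at 12.03 and 12.54 alone, 11.95 and 11.88 with WT MEFs, and 11.90 and 12.39 with null MEFs. WT MEFs exceeded null MEFs alone 6.12-fold (2.61 ± 0.19, adjusted p = 2.39e-06) and in co-culture 2.85-fold (1.51 ± 0.19, adjusted p = 0.000183). The fall in WT MEFs (-0.89 ± 0.19, adjusted p = 0.0143), near the median fall of genes typical of those cells, was -0.36 after subtraction and was lost without any 1 array of those groups (-0.97 to -0.82, adjusted p 0.0601 to 0.0963).

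Adamts15 fell in WT MEFs by about as much as Mmp15. It lay at 8.42 and 8.23 in WT MEFs alone, 6.81 and 6.90 with tumor cells, 6.53 and 6.59 in null MEFs alone, 6.42 and 6.49 with tumor cells, and between 4.76 and 5.22 in the tumor groups. Co-cultured WT MEFs came close to the null MEFs without overlap. The fall in WT MEFs was 2.76-fold (-1.46 ± 0.15, adjusted p = 9.18e-05), the responses differed by -1.36 ± 0.21 (adjusted p = 0.00581), and -0.94 of the fall remained after subtraction. WT MEFs alone exceeded null MEFs alone 3.40-fold (1.76 ± 0.15, adjusted p = 6.55e-06). Adamts9 lay between 12.17 and 13.17 in MEFs and between 9.20 and 9.93 in tumor cells, and WT MEFs alone exceeded tumor cells alone 12.4-fold (-3.63 ± 0.21 for tumor cells minus WT MEFs, adjusted p = 1.83e-07). Its fall in WT MEFs (-0.75 ± 0.21, adjusted p = 0.0484) was lost in 8 of 14 fits without 1 array, those without either array of tumor cells with WT MEFs, any array of WT MEFs or either of null MEFs alone (-0.85 to -0.64, adjusted p 0.0519 to 0.268). Adamts8 was 1.58-fold higher in null than in WT MEFs alone (-0.66 ± 0.12, adjusted p = 0.00128), but its 2 probes in the sound scanner arrays gave 0.03 and -2.35.

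Adamts7, which cleaves cartilage oligomeric matrix protein, stood out among the remaining ADAMTS genes. It lay at 9.28 and 9.29 in tumor cells alone, 10.15 and 10.24 with WT MEFs, and 9.51 and 9.24 with null MEFs. In MEFs it lay at 6.89 and 6.68 in WT alone, 8.88 and 8.67 in WT with tumor cells, 6.49 and 6.09 in null alone and 7.27 and 7.23 in null with tumor cells. Every tumor array lay above every MEF array. In tumor cells it rose with WT MEFs by 0.91 ± 0.15 (adjusted p = 0.00334), at 115% and 133% of the partner's level, and differed by 0.09 ± 0.15 with null MEFs (adjusted p = 0.722). The difference between partners (0.82 ± 0.15, adjusted p = 0.007) was lost without replicate B of the tumor cells with WT or with null MEFs (0.68 to 0.77, adjusted p 0.0504 to 0.0507). In WT MEFs it rose 3.98-fold (1.99 ± 0.15, adjusted p = 8.47e-06), at 30.9% and 25.4% of the tumor partner's level, and in null MEFs 1.95-fold (0.96 ± 0.15, adjusted p = 0.00417), at 11.3% and 10.7%. These shares lay around those of tumor-typical genes, and after subtraction the difference in WT MEFs was -1.27. The responses differed by 1.03 ± 0.21 (adjusted p = 0.0287), -1.62 after subtraction, a call lost without any array of WT MEFs, null MEFs with tumor cells A or B, or null MEFs alone A (0.83 to 1.13, adjusted p 0.0542 to 0.133).

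Adamts10 and Adamts12 were higher in WT MEFs than in tumor cells, both grown alone, 5.05-fold and at least 3.1-fold (-2.34 ± 0.22, adjusted p = 6.14e-06, and -1.63 ± 0.15, adjusted p = 4.59e-06, as tumor cells minus WT MEFs). Adamts12 was also higher in WT than in null MEFs alone (0.86 ± 0.15, adjusted p = 0.000908). Adamts16 and Adamts17 stayed between 4.96 and 6.23 and between 5.07 and 6.05, and both were lower in tumor cells alone than in null MEFs alone, at least 2.11-fold and 1.84-fold (-1.08 ± 0.15, adjusted p = 0.000121, and -0.88 ± 0.11, adjusted p = 7.07e-05). Adamts6, Adamts13 and Adamts18 passed in no comparison. Adamts18 reached 7.24 in tumor cells with null MEFs A, the array with a faulty scanner file, against 5.08 to 5.86 on all others.

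The ADAMTS-like proteins are thought to act in microfibril assembly and matrix organisation rather than as enzymes. Adamtsl4, which binds fibrillin, lay at 9.82 and 10.28 in tumor cells alone, 11.42 and 11.57 with WT MEFs, 10.93 and 11.56 with null MEFs, and between 12.12 and 13.34 in the MEF groups. It rose 2.73-fold with WT MEFs (1.45 ± 0.22, adjusted p = 0.00212) and 2.29-fold with null MEFs (1.19 ± 0.22, adjusted p = 0.00438), at 35.0% and 41.4% of the WT partner's level and 10.4% and 23.1% of the null partner's. After subtraction 1.37 remained with WT MEFs and 0.35 with null MEFs, the latter not past the threshold.

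Adamtsl2, another fibrillin-binding member, lay at 5.34 and 5.61 in tumor cells alone, 6.51 and 6.63 with WT MEFs, 5.71 and 5.88 with null MEFs, 5.52 and 5.67 in WT MEFs alone, 6.48 and 6.38 in WT MEFs with tumor cells, 5.66 and 5.79 in null MEFs alone, and 5.99 and 6.09 in null MEFs with tumor cells. As with Mmp3, tumor cells with WT MEFs and WT MEFs with tumor cells stood above every other group. It rose at least 2.14-fold in tumor cells with WT MEFs (1.1 ± 0.12, adjusted p = 0.000319) and 1.79-fold in WT MEFs (0.84 ± 0.12, adjusted p = 0.00139). In WT MEFs alone the gene was not well above background on every array, so the second fold is uncertain. The gain in WT MEFs was 43.3% and 36.7% of the tumor partner's level, and the gain in tumor cells 54.1% and 63.0% of the WT partner's. Adamtsl5 was highest in tumor cells, between 9.08 and 9.71 in the tumor groups, 8.32 and 8.34 in WT MEFs alone and 6.79 and 6.76 in null MEFs alone, and exceeded null MEFs alone 6.52-fold in tumor cells alone (2.71 ± 0.15, adjusted p = 1.16e-07). Adamtsl1 and Adamtsl3 were lower in tumor cells alone than in WT MEFs alone, the first at least 2.33-fold and the second 3.98-fold (-1.22 ± 0.15, adjusted p = 6.07e-05, and -1.99 ± 0.40, adjusted p = 0.00172).

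**Figure D3:**
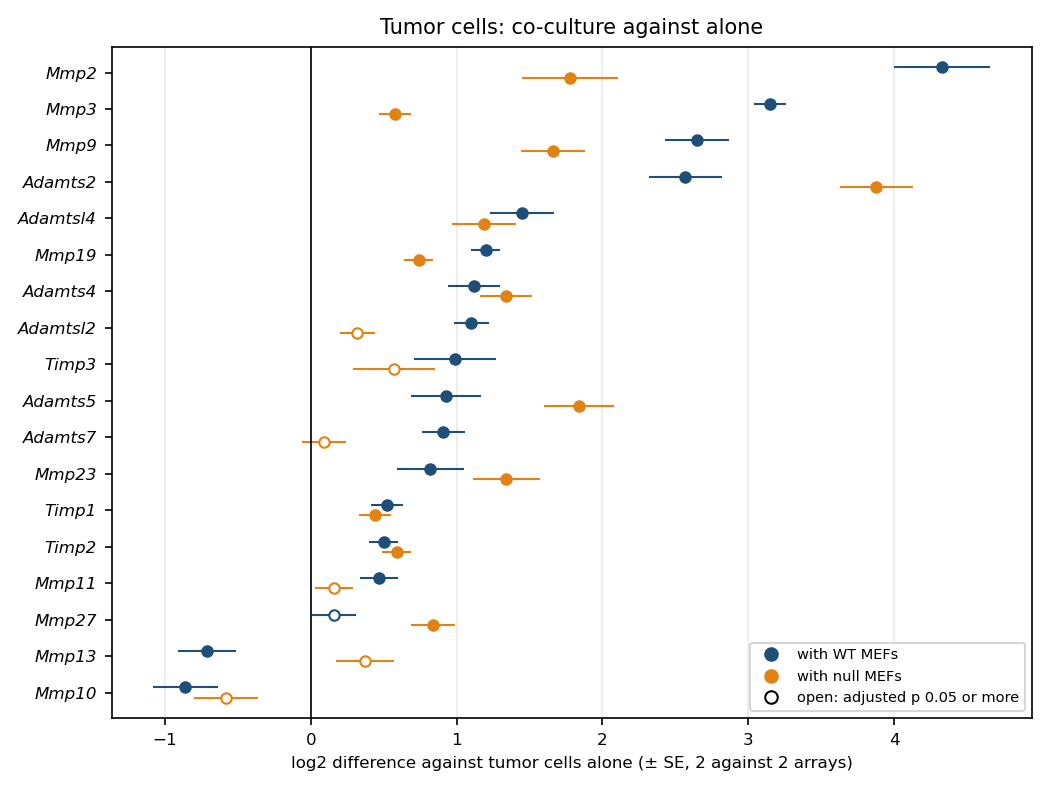
Log2 differences of tumor cells with WT MEFs and with null MEFs against tumor cells alone (horizontal axis, points with bars of ± SE), for the 18 members called in at least 1 of these comparisons (vertical axis). Mmp3 lies at 3.15 with WT MEFs and 0.58 with null MEFs, while Adamts2 lies at 2.57 and 3.88; both series share the tumor cells grown alone.

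**Figure D4:**
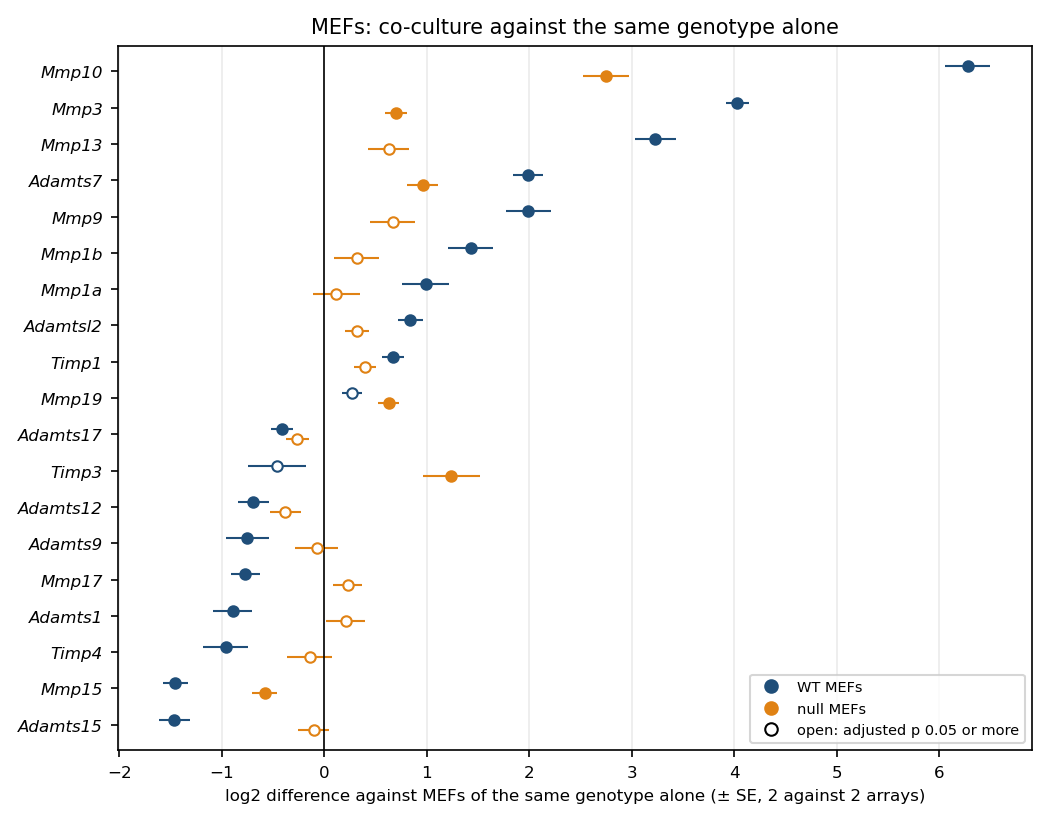
Log2 differences of WT and of null MEFs with tumor cells against the same MEFs alone (horizontal axis, points with bars of ± SE), for the 19 members called in at least 1 of these comparisons (vertical axis). Mmp10 lies at 6.28 in WT and 2.75 in null MEFs, Mmp3 at 4.03 and 0.70, and Mmp15 and Adamts15 are the lowest in WT MEFs.

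**Figure D5:**
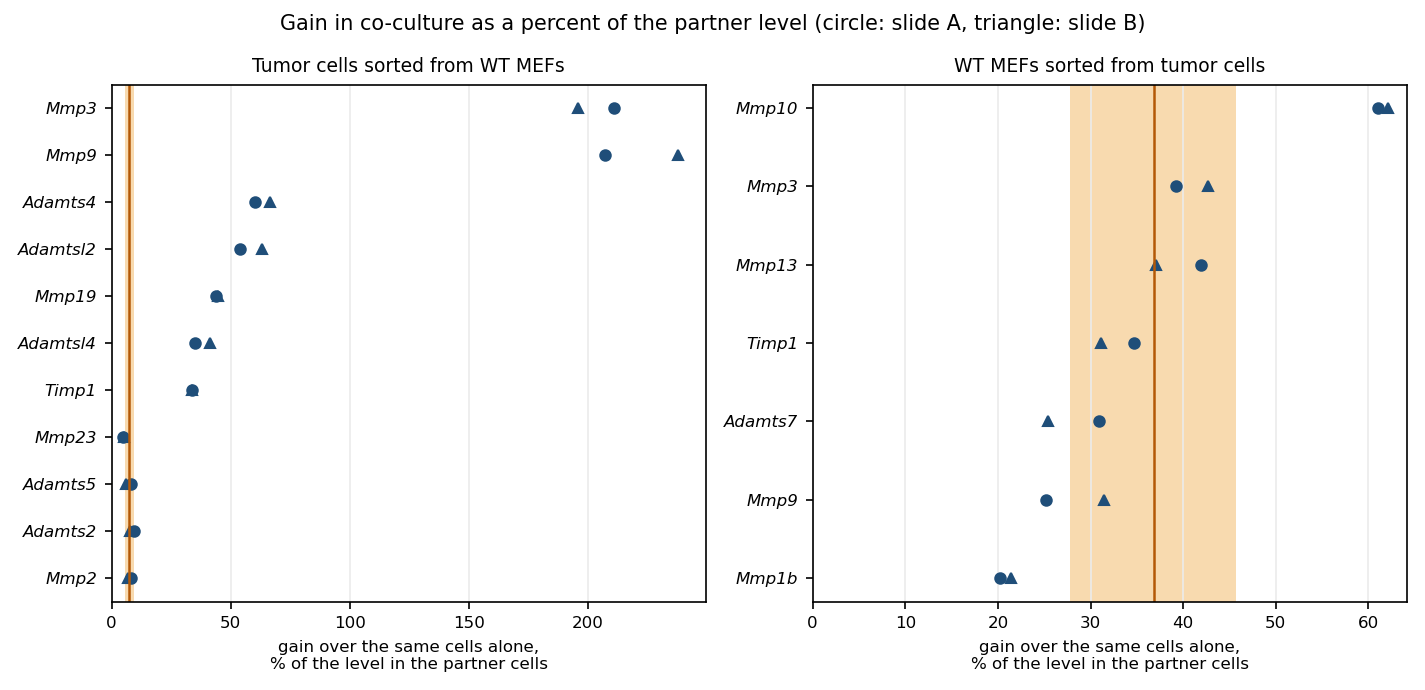
Gain of each member in a co-cultured cell type as a percent of its level in the sorted partner cells (1 point per array), beside the median (line) and the middle range from the first to the third quartile (band) of genes at least 32-fold higher in the partner, taken from replicate A. In tumor cells with WT MEFs, Mmp2, Adamts2 and Adamts5 lie near the line and Mmp3 and Mmp9 above it; in WT MEFs, Mmp10 lies above the band and Mmp3 and Mmp13 within it.

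Genes that act with these families were also compared, and they are no members. Of 19 tested activators, inhibitors and receptors of proteases, 10 were higher and 4 lower in WT than in null MEFs alone, where 15.9% and 17.9% of all gene names were, with a median of 1.02 against -0.03 over all gene names. Those with the smallest p were Thbs2 (3.67, adjusted p = 1.89e-07), a thrombospondin that clears Mmp2, and Reck (1.70, adjusted p = 5.69e-07), a membrane inhibitor of MMPs. The 4 lower ones, named after their values were seen, were Lcn2, Bsg, Ctsl and Furin. In WT MEFs with tumor cells 2 of the 19 rose and 1 fell, where 6.31% and 4.2% of all gene names did, with a median of -0.08 against -0.04. The 2 that rose were Hpse, heparanase (2.74, adjusted p = 1.82e-08), and Lcn2, which binds Mmp9 (3.44, adjusted p = 4.8e-06). In tumor cells with WT MEFs 6 of the 19 rose and 3 fell, where 7.04% and 4.77% of all gene names did, with a median of 0.46 against -0.04, and Thbs2 (2.48, adjusted p = 2.11e-05) and Serpine2 (3.39, adjusted p = 0.000135) were among those that rose. Plaur and Plau, named after their values were seen, were among the 3 that fell.

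Of 10 tested membrane ADAM proteases, 7 were higher and 2 lower in WT than in null MEFs alone, where 15.9% and 17.9% of all gene names were, with a median of 1.0 against -0.03. Adam23 (2.60, adjusted p = 3.47e-06) and Adam19 (2.63, adjusted p = 1.45e-05) were the higher ones with the smallest p. The 2 lower ones, named after their values were seen, were Adam22 (-0.83, adjusted p = 0.000143) and Adam33 (-0.81, adjusted p = 0.00273). Of 13 tested substrates and partners of ADAMTS enzymes, 6 rose in tumor cells with WT MEFs, where 7.04% of all gene names did, with a median of 0.70 against -0.04. They included Col1a1 (5.43, adjusted p = 7.95e-06) and Col3a1 (7.36, adjusted p = 1.1e-05), which are also fibroblast markers, and 11 of the 13 were lower in tumor cells alone than in WT MEFs alone, where 23.6% of all gene names were. Of 5 tested procollagen and astacin proteinases, Pcolce2 rose in tumor cells with WT MEFs (0.48, adjusted p = 0.021). The part of sorted partner cells in these list counts was not tested.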

How the data were processed

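RNA of 14 samples in 7 groups of 2 was hybridised to 1-colour Agilent mouse arrays (design 028005, per the file headers). Intensity values in the scanner files had been background-subtracted by the authors (Feature Extraction, version 10.1.1.1 in the file headers and 9.1 in the submitters' processing notes), with flags for outlier spots and spots above background. The authors also deposited a table of log2 values for 36413 gene names. Its scaling between arrays is not given in the sources used here. It matched mean log2 intensity over a gene name's spots (r = 0.985, 10299 gene names with several probes) better than its own probe alone (r = 0.899). Because 2 scanner files were faulty, all comparisons used this table, although the first design assumed scanner intensities.

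Gene names well above background on both arrays of a group (the sound array alone where the other was faulty) were tested with limma 3.58.1 in R 4.3.3, in 1 fit of 7 group means with 7 residual degrees of freedom and Benjamini-Hochberg adjustment. The number of arrays limits the precision. Where a group was well above background on neither array, a fold was taken against the lowest signal above background or the gene's own value, whichever was higher. Such folds are mostly given as at least. They are not strict bounds, since that lowest signal could lie below the median of genes not above background (4.601 against 5.095 in WT MEFs alone A). The partner's share was the level gained over the same cells alone, as a percent of the sorted partner's level on the linear scale. As an alternative, its median over genes at least 32-fold higher in the partner was subtracted. The remainder was then divided by the fraction left after that share. Where it fell below the median of genes not above background, it was set to that median. Rises after subtraction can thus exceed those before it, and falls can be smaller. Replicate letters coincide with the 2 slides. Deviations of the A arrays from their group means correlated by 0.092 to 0.599 between groups (21 pairs, median 0.298), and the fit with a replicate block was an alternative. The code was tested on simulated data.

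Chosen for description were the Timp genes, Mmp2, Mmp3, Mmp9, Mmp10, Mmp13, Mmp14, Adamts1, Adamts2, Adamts4, Adamts5 and, per comparison, up to 10 members each way that passed with a log2 difference of at least 1, the same sign on both slides and signal above background, 27 genes in all. Not every level of these is printed. Some, such as Mmp11 and Adamts9, are given as ranges, Adamtsl5 without the co-cultured MEFs, and Adamts10 by its difference only. Of related lists, up to 4 genes with the smallest p were named, and a gene that this selects is not reported here. Members and lists were chosen with earlier results of these data known. All 51 symbols are current in the RefSeq table.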

Additional observations from a re-analysis of the deposited data

Results flagged for a closer look

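The response of WT MEFs to tumor cells differed from that of null MEFs, by the test of the difference itself (limma, adjusted p under 0.05), in 8 members. The WT response was the higher for Mmp10 by 3.53 (6.28 in WT and 2.75 in null MEFs), for Mmp3 by 3.32 (4.03 and 0.70), for Mmp13 by 2.59 (3.23 and 0.63) and for Adamts7 by 1.03 (1.99 and 0.96). It was the lower for Mmp15, by -0.88 (-1.45 and -0.58), for Mmp17, by -1.0 (-0.77 and 0.23), for Adamts15, by -1.36, and for Timp3, by -1.70 (-0.46 and 1.24). All 8 had the same sign on both slides, the slides from which the calls were made. In the sound scanner arrays 3 of the 8 calls were kept, and the calls split 4 higher and 0 lower. With the partner's share subtracted 2 of the 8 were kept, both higher, and the Adamts7 difference was -1.62. Tumor-typical genes stood at a median of 36.9% and 37.6% of the tumor level in sorted WT MEFs and of 8.91% and 9.46% in sorted null MEFs.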

How the results depend on the processing

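With 2 arrays a group, calls near the threshold moved most. Over the fits that each left out 1 array, the members called ranged from 9 to 17 (tumor cells with WT MEFs against alone), 11 to 13 (with null MEFs), 5 to 11 (between partners), 10 to 18 (WT MEFs with tumor cells), 3 to 7 (null MEFs), 21 to 28 and 16 to 24 (between MEF genotypes, without and with tumor cells), 4 to 10 (difference of responses), and 27 to 32 and 26 to 30 (tumor cells against WT and null MEFs). With a replicate block the counts were 17, 14, 11, 17, 6, 28, 26, 10, 32 and 31, in the same order, and all 182 calls were kept. Quantile normalization kept 180 of the 182 and testing without a filter on dim genes 169.

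The sound scanner arrays kept 127 of 182 calls, and called 9, 7 and 4 members in the 3 tumor comparisons and 4 for the difference of responses. With normexp background correction these were 8, 7, 3 and 4, with 9 for WT MEFs with tumor cells and 19 for tumor cells against null MEFs. With only the groups of 1 cell type in the fit, 9 members passed for tumor cells with WT MEFs and 3 between partners. With all 14 scanner arrays, the faulty 2 included, the counts were 0, 0, 0, 3, 1, 4, 2, 1, 10 and 7. Signs were compared only for results of named members that passed with either input. Of these, the following turned sign: Mmp13 (1.82) in tumor cells with WT MEFs, Adamtsl4 (-0.44) with null MEFs, Adamtsl5 (-0.79) in tumor cells against WT MEFs, and against null MEFs Adamts15 (1.33), Mmp13 (-1.11), Mmp14 (-2.17), Mmp3 (-1.47) and Timp3 (-2.10). With 1 Timp2 probe alone the difference in tumor cells with WT MEFs was -0.09. The cause of these changes was not tested.

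Subtracting the partner's share gave 7 calls for tumor cells with WT MEFs, 11 for WT MEFs, 1 for null MEFs and 2 for the difference of responses. Over 7 comparisons, 50 of 93 calls kept their direction and 4 passed with the opposite sign (Adamts7 and Mmp9 in WT MEFs, Mmp10 in null MEFs and Adamts7 between co-cultured MEFs). Among results of named members that passed before or after subtraction, it turned the sign of Mmp2 between partners (-0.05), Adamts7 (-1.27) and Mmp9 (-1.10) in WT MEFs, Mmp10 in null MEFs (-1.18), Adamts7 (-1.12), Mmp3 (-0.48) and Mmp9 (-2.63) between co-cultured MEFs, and the Adamts7 difference of responses (-1.62). Of the 178 results of named members, the 124 that passed all kept their sign within each slide, with no test. The signs of those that did not pass were not compared.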
